A study of Homo sapiens with 2 samples.

Results

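Keratins are the intermediate filament proteins of epithelial cells, and 9 keratin genes were followed in C4-2 cells: KRT8, KRT18, KRT19 and KRT7 as luminal keratins, and KRT5, KRT14, KRT15, KRT10 and KRT80 as keratins of basal or stratified epithelium. C4-2 is an established human prostate cancer cell line derived from LNCaP. Members were all probe sets, the groups of short oligonucleotides that together measure a transcript, which the annotation of the Affymetrix array gives to exactly 1 of these genes. The rule found 15 of 54675 probe sets and used no measured value. The cells had been cultured in RPMI medium with fetal bovine serum and transfected with RNAiMax for 48 h, in 1 group with miR-99a and in the other with si-GL2, the control small interfering RNA, which is named after a luciferase reporter. Transfection reagent and time were shared by both groups, and the labels give no genetic change or drug beyond the transfected RNA. With 1 array in each of the 2 groups, the differences below have no error from replicates and no p-value. An effect of miR-99a, an effect of si-GL2 and a chance difference of the cultures cannot be told apart.

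Keratin filaments are built from obligate pairs of a type I and a type II keratin, and a keratin without a partner is usually degraded. KRT8 (type II) and KRT18 (type I) form the filaments of simple epithelium and mark the secretory luminal cells of the prostate. KRT19 and KRT7 are further keratins of simple epithelium, grouped here with the luminal keratins. KRT5 and KRT14 form those of basal cells, KRT15 is another basal type I keratin, and KRT10 is known best as the partner of KRT1 in differentiated epidermis. KRT80 is a type II keratin of differentiating epithelia. In the RefSeq gene order, KRT8 and KRT18 are adjacent although they are of different types, KRT80 lies next to KRT7, and KRT15 lies next to KRT19.

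The transfected agent is shown by its sequence, with its seed, the stretch through which a microRNA pairs with its targets. The sequence of si-GL2 was not used here, so the seeds of miR-99a and the control were not compared. The label names miR-99a without an arm, so both mature arms are given from RefSeq (GRCh38.p14), with bases 2 to 8, the seed, in capitals. The 5p arm lies at chr21:16539101-16539122 and the 3p arm at chr21:16539138-16539159, both on the plus strand. The 5p arms of miR-100 and miR-99b carry the same seed as that of miR-99a and complete the family.
hsa-miR-99a-5p: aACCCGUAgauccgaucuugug
hsa-miR-99a-3p: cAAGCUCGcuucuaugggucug
hsa-miR-100-5p: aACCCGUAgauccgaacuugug
hsa-miR-99b-5p: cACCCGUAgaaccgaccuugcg
No keratin transcript sequence was used here, so seed matches in the keratins were not analysed here.

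All values are linear signals as the authors deposited them. A difference is the log2(signal + 16) of miR-99a less that of si-GL2, a scale on which the change of dim probe sets is understated. A probe set was counted as expressed when its mean on this scale reached the median of all probe sets, equal to a signal of 47.2. This is a limit relative to the other probe sets, with no detection call behind it. Signals of different probe sets are not on a common scale, so each keratin is compared with itself between the arrays and not with another keratin. The medians of the arrays were 47.8 and 47.4, and the 18 probe sets of the hybridisation spikes differed by between -0.12 and 0.06, which covers hybridisation and scaling alone. Of the 15 keratin probe sets, 7 were expressed, covering 5 of the 9 genes, namely all 4 luminal keratins and KRT10. The other 8 probe sets, among them the only ones of KRT5, KRT14, KRT15 and KRT80, lay under the limit. By type, 3 of 5 type I and 2 of 4 type II member genes had an expressed probe set.

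**Figure D1:**
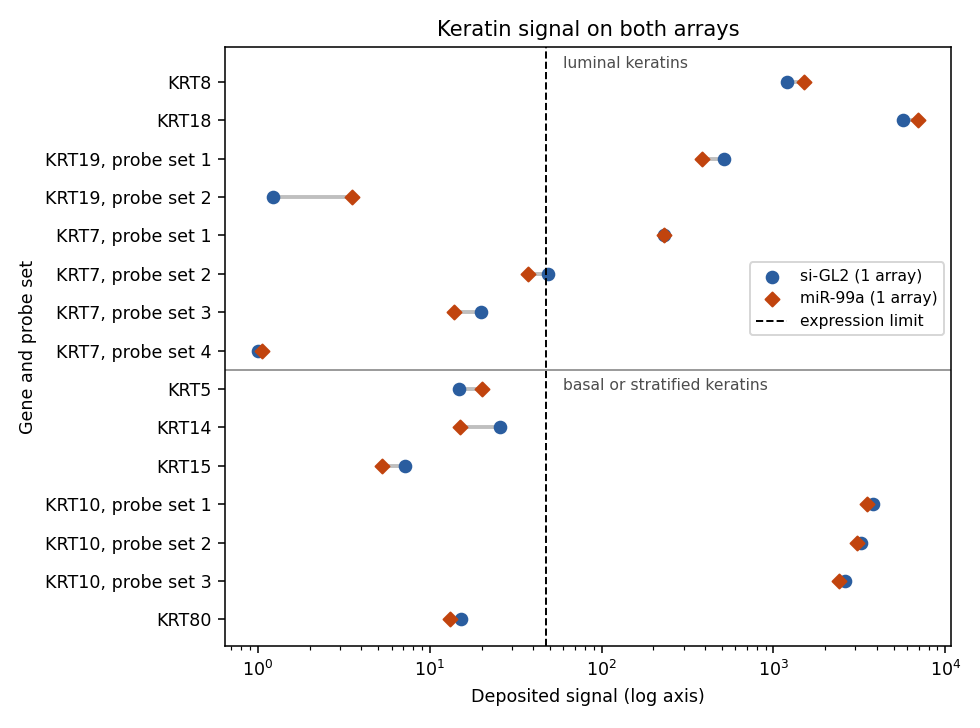
Deposited signal (x axis, log scale) of each of the 15 keratin probe sets (rows) on the miR-99a array (diamonds) and the si-GL2 array (circles), 1 array each, with the expression limit as a dashed line at 47.2. KRT8, KRT18, KRT10 and 1 probe set each of KRT19 and KRT7 lie to its right on both arrays, and KRT5, KRT14, KRT15 and KRT80 to its left on both. Another KRT7 probe set lies across it, at 37.2 on the miR-99a array and 49.1 on the si-GL2 array.

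None of the 9 member genes had a probe set that differed by 1.5-fold or more between the arrays on the log2(signal + 16) scale. This held for 0 of the 7 expressed keratin probe sets, where 4.29% of all 22401 expressed probe sets with 1 gene name passed that size (1.53% higher, 2.76% lower), and for 0 of the 15 with the expression limit removed, where 7.12% of all 41091 did (3.39% higher, 3.72% lower). At the level of genes, each taken by its brightest probe set, 0 of 5 expressed keratins passed, against 4.11% of 12218 expressed genes. With so few members, a count of 0 is near what these backgrounds give and is no result about keratins. The median difference over the 7 expressed probe sets was -0.08, with 2 above 0 and 5 below, against a median of -0.02 and an SD of 0.27 over all expressed probe sets with 1 gene name. Their differences ran from -0.41 to 0.31. The median over the 4 luminal genes was 0.15 and KRT10, the 1 expressed gene of the other class, was at -0.10, so the classes differed by 0.25 on the log2 scale; this contrast sets 4 genes of unlike direction against a single gene.

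KRT8 and KRT18, the filament pair of luminal cells, were both higher after miR-99a and by the same amount. The KRT8 signal was 1504 on the miR-99a array and 1206 on the si-GL2 array, which is a difference of 0.31, or 1.24-fold. That of KRT18 was 6982 with miR-99a and 5640 with si-GL2, also a difference of 0.31 and 1.24-fold. The differences of both genes were 0.01 apart, and both lay outside the range of the spikes.

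The same difference stood out unequally, because bright probe sets varied less between the arrays than dim ones. Within 0.5 of KRT18's level on the log2 scale there were 375 expressed probe sets with 1 gene name, their differences had an SD of 0.11, and 2.40% of them, KRT18 included, differed by at least as much as KRT18 in either direction. Around KRT8's level there were 2216, with an SD of 0.24, and 14.8% differed by at least as much as KRT8. These shares describe 1 pair of arrays and say nothing of how much the genes vary between cultures. Each of the pair was measured by a single probe set, 209008_x_at for KRT8 and 201596_x_at for KRT18, and both carry the suffix with which Affymetrix marks probes that may also bind related sequences. The part of such sequences in these signals was not tested. KRT8 and KRT18 have processed pseudogenes, and the 2 probe sets of the pseudogene KRT8P12 differed by less, at 77.3 against 70.8 (0.10) and at 105 against 100.3 (0.06).

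KRT19, a type I keratin of simple epithelium that pairs with KRT8 or KRT7, differed in the other direction. Its expressed probe set, 201650_at, read 385 with miR-99a and 515 with si-GL2, which is a difference of -0.41, or 1.33-fold lower. Around its level there were 3825 expressed probe sets with an SD of 0.28, and 13.5% differed by at least as much. The other probe set of KRT19 was listed at 3.55 and 1.22, close to the bottom of the scale, where its difference of 0.18 has little meaning. The difference of KRT8 exceeded that of KRT19 by 0.72 and the difference of KRT18 exceeded it by 0.71. As the mean over both of its probe sets KRT19 was at -0.11, a value to which the dim probe set contributes equally.

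KRT7, a type II keratin of simple and glandular epithelium, was nearly equal on the arrays by its 1 expressed probe set, 1558393_at, at 229 with miR-99a and 231 with si-GL2 (-0.01). Its other 3 probe sets lay under the limit. The brightest of these, just below the limit, was at 37.2 after miR-99a and 49.1 after si-GL2 (-0.29), the next at 13.9 and 19.9 (-0.26), and the last at 1.05 and 1, the value at which the file lists 994 probe sets of the miR-99a array and 1013 of the si-GL2 array. The probe sets of KRT7 therefore gave differences of unlike size, and their mean was -0.14. The direction of KRT7 by its expressed probe set turned to 0.04 after quantile normalization.

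KRT10 was expressed by all 3 of its probe sets and was the 1 member with more than a single expressed probe set. Probe set 213287_s_at read 3516 with miR-99a and 3776 with si-GL2 (-0.10). Probe set 210633_x_at was at 3057 against 3227 (-0.08), and 207023_x_at at 2414 against 2605 (-0.11). All were slightly lower after miR-99a and within the range of the spikes, so none was larger in size than the largest difference among the spikes. The spikes were not matched to KRT10 in level, and what lies behind these small differences was not tested. Their differences spanned 0.03, where the median span between the expressed probe sets of 1 gene was 0.22 over 5842 genes of all levels. A span this small or smaller was found in 7.26% of them. This share is not matched to the level of KRT10, where differences had SDs of 0.15 to 0.18, against 0.27 over all expressed probe sets. All 3 probe sets carry an x or s suffix for shared probes, and the part of related sequences was not tested. Between 44.0% and 57.6% of probe sets at their levels differed by at least as much. The antisense gene KRT10-AS1 was at 638 after miR-99a and 698 after si-GL2 (-0.13). KRT1, the usual partner of KRT10 in epidermis, was under the limit at 9.59 and 19.3.

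**Figure D2:**
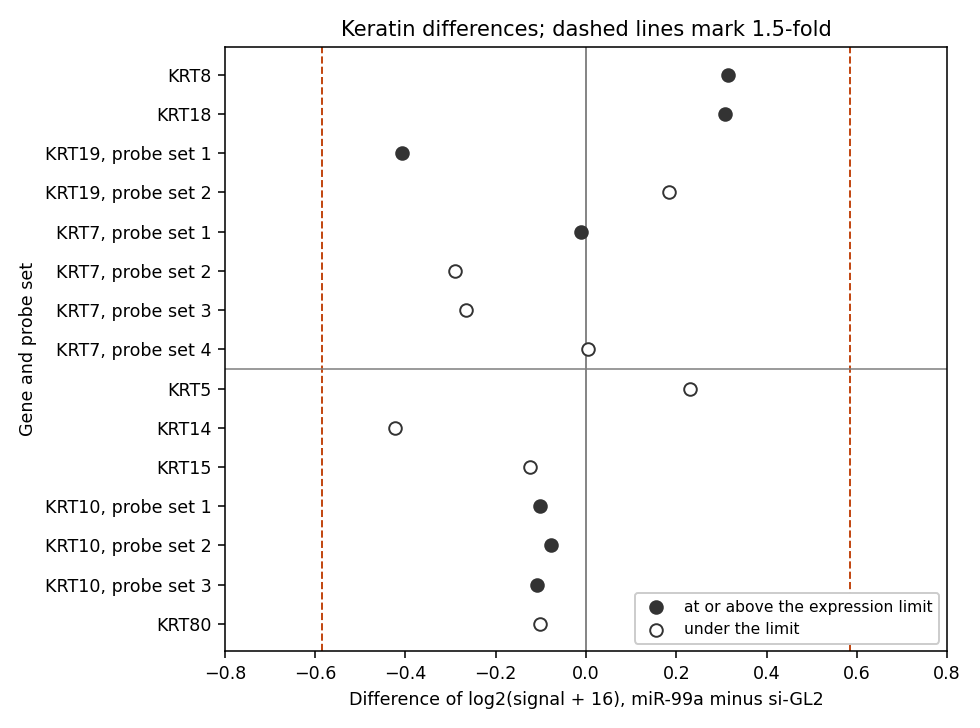
Difference of log2(signal + 16), miR-99a minus si-GL2 (x axis), for each of the 15 keratin probe sets (rows), filled where the probe set was expressed and open where it lay under the limit; 1 array a group, no error bars. KRT8 and KRT18 sit together at 0.31, KRT19 at -0.41 and the 3 probe sets of KRT10 between -0.11 and -0.08, and no point reaches the dashed lines at 1.5-fold.

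The keratins that define basal cells were dim on both arrays. KRT5, the type II keratin of basal cells, read 20.1 with miR-99a and 14.8 with si-GL2 (0.23). Its partner KRT14 was at 15.1 after miR-99a and 25.7 after si-GL2 (-0.42), so the pair lay on opposite sides of 0. KRT15 was at 5.27 and 7.19 (-0.12).

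KRT80 was at 13.0 and 15.1 (-0.10). All 4 genes have 1 probe set each, without a suffix for shared probes, and each was under the limit of 47.2 on both arrays. The differences of these probe sets are given as a description of dim signals, and the scale shrinks them: the signals of KRT14 as deposited have a ratio of 0.587, past 1.5-fold. The labels call the cells prostate cancer, and of the 9 members the luminal keratins and KRT10 were expressed. For KRT7 this rests on 1 of its 4 probe sets, and for KRT19 on 1 of its 2.

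**Figure D3:**
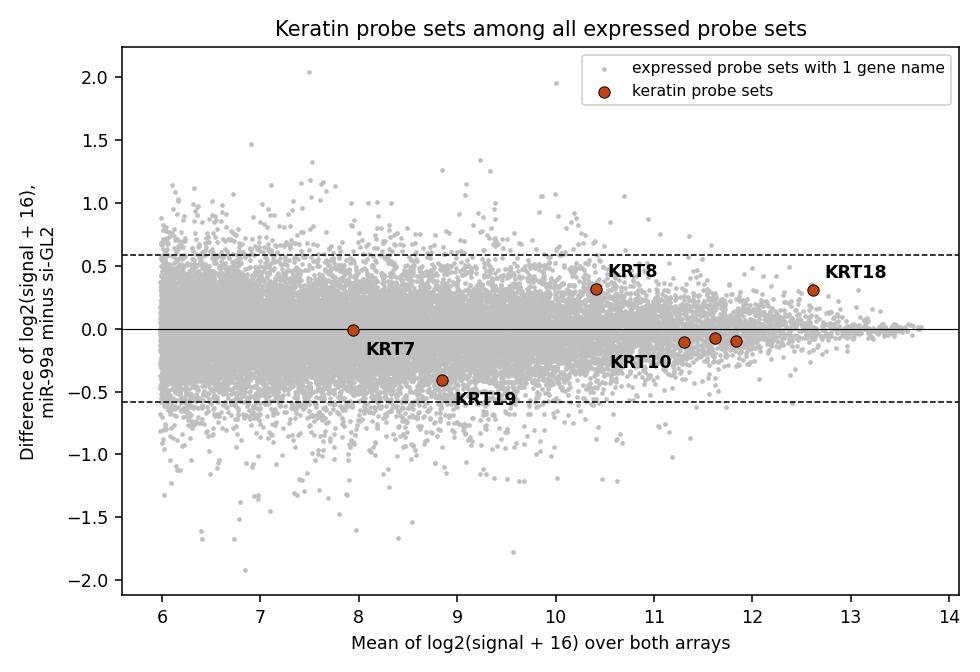
Difference of log2(signal + 16), miR-99a minus si-GL2 (y axis), against the mean of log2(signal + 16) over both arrays (x axis) for the 22401 expressed probe sets with 1 gene name (grey) and the 7 expressed keratin probe sets (red); dashed lines mark 1.5-fold. The grey cloud narrows towards bright probe sets, so KRT18 lies at its upper edge while KRT8, at the same difference of 0.31, lies within it.

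Of the other keratin genes with a probe set of their own, few were expressed. There are 35 of them, measured by 41 probe sets that carry no other gene's name, and 37 of these lay under the limit, with signals up to 47.2 after miR-99a and 51.4 after si-GL2. The 4 expressed ones were dim: KRT38 at 64.9 after miR-99a and 93.0 after si-GL2 (-0.43), KRT85 at 104 and 103 (0.01), KRT9 at 79.2 and 76.7 (0.04), and KRT72 at 50.8 and 44.6 (0.14). None of these 4 passed 1.5-fold, and their median was 0.02. KRT72 was above the limit with miR-99a only. Of the 37 probe sets under the limit 2 were at least 1.5-fold higher and 1 lower, against 3.39% and 3.72% of all probe sets with 1 gene name. These shares take in the expressed probe sets, where 1.53% and 2.76% passed, so they understate the shares among dim ones. Those past 1.5-fold were a probe set of KRT40 (11.4 against 2.19, 0.59), one of KRT4 (14.7 against 3.94, 0.62) and that of KRT23 (4.64 against 20.1, -0.81). The second probe sets of KRT40 (-0.17) and KRT4 (-0.25) went the other way. KRT38 and KRT85 are hair keratins and KRT9 is a keratin of palm and sole skin.

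Genes whose products bind keratin filaments were mostly expressed and lay on both sides of 0. Of 17 desmosome and linker genes 16 were expressed, 8 above 0 and 8 below, with a median of 0.00 against -0.03 over all expressed genes; 1 was at least 1.5-fold higher and 0 lower, where 1.21% and 2.90% of all expressed genes were. The one past 1.5-fold was EPPK1, which encodes epiplakin, a linker that binds keratin filaments, at 803 after miR-99a and 472 after si-GL2 (0.75). Its 3 expressed probe sets were at 0.75, 0.82 and 0.57, and its mean over all 5, which takes in 2 under the limit, was 0.45, short of 1.5-fold. The envoplakin gene EVPL was next at 0.30, from 76.6 against 59.1. The desmosomal cadherin genes DSC3 (-0.52, from 37.1 against 59.9) and DSC2 (-0.41, from 504 against 673) were lowest, and DSC3 was above the limit only on the si-GL2 array. Desmoplakin, DSP, which anchors keratins at desmosomes, was at 2540 against 2297 (0.14), and plectin, PLEC, at 262 against 221 (0.23).

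Of 14 other intermediate filament genes 8 were expressed, 4 above 0 and 4 below, with a median of 0.01 and 0 past 1.5-fold, against 4.11% of all expressed genes. The median was 0.28 above the 75th percentile, 0.12 as means over probe sets and -0.18 without x and s probe sets. NEFH, under the limit at 22.4 against 9.27, was at 0.60. The lamin genes LMNB1 (1318 against 959, 0.45) and LMNB2 (0.30) were highest, and PRPH (-0.22) and NES (-0.22) were lowest. Vimentin, VIM, the filament protein of mesenchymal cells, was at 818 after miR-99a and 682 after si-GL2 (0.26).

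Markers of the prostate cell layers other than keratins were set beside the keratins. Over all expressed genes, 1.21% were at least 1.5-fold higher and 2.90% lower, and the counts on the marker lists stand against these shares. All 13 luminal identity genes analysed here were expressed, with a summed signal of 40704 with miR-99a and 42165 with si-GL2, a median of -0.06 and 0 past 1.5-fold. CD24 (0.29) and TRPM8 (0.16) were highest and ACP3 (-0.54) and SLC45A3 (-0.36) lowest; averaged over probe sets, the list's median was 0.04. Of 11 basal identity genes, 7 were expressed, with a median of 0.10, 6 above 0 and 0 past 1.5-fold. CD44 (50.8 against 46.3, 0.10) was above the limit only on the miR-99a array, and ITGB4 (46.5 against 52.6) only on the si-GL2 array. The directions of CD44 and ITGB4 are therefore not independent of the limit. The integrin gene ITGA2 (305 against 207, 0.52) and EGFR (1424 against 1006, 0.49) were highest, ITGB4 (-0.13) and SNAI2 (0.04) lowest. NGFR, LAMB3, CAV1 and CAV2 were under the limit. The summed signal of all 11 basal genes, those under the limit included, was 2949 after miR-99a and 2248 after si-GL2. Such a sum follows its brightest genes, here EGFR (1424 against 1006) and ITGA6 (638 against 465), while the median of the list was 0.10. That median was 0.47 with only genes above the 75th percentile and 0.44 without x and s probe sets.

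Among the regulators of epithelial transcription and splicing, 11 of 12 were expressed, with a median of 0.03 and 1 of them at least 1.5-fold lower, against 2.90% of all expressed genes. This was GRHL1 (189 against 321, -0.72), with KLF5 next (-0.51), while TFAP2A (0.36) and KLF4 (0.33) were highest. The mean over both probe sets of GRHL1 was -0.50, short of 1.5-fold. Of 8 genes of club and intermediate cells 4 were expressed, and PSCA, prostate stem cell antigen, was at least 1.5-fold lower at 138 against 266 (-0.87), by its 1 probe set; PIGR (0.23) and WFDC2 (0.11) were highest and CP was at 0.04. The summed signal of all 8, those under the limit included, was 631 after miR-99a and 729 after si-GL2. Of 11 genes of cornified squamous cells 3 were expressed, CNFN (-0.41), CSTA (897 against 1184, -0.39) and SFN (-0.02). The summed signal of all 11, those under the limit included, was 1462 against 1820. The defining cornified genes IVL, LORICRIN and FLG were under the limit on the miR-99a array and on the si-GL2 array.

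Genes used as markers of stroma, leukocytes, endothelium and neuroendocrine cells were partly expressed by the limit, which has no detection call behind it. In cultures of 1 cell line such signals do not show that these cell types were present. Their relation to the keratin values was not tested. The sums here run over all measured genes of a list, those under the limit included. Of 10 stroma genes 8 were expressed. The summed signal of all 10, vimentin included, was 1542 with miR-99a and 1371 with si-GL2. Among the expressed, LUM (0.42) and DCN (0.39) were highest, and DES (-0.05) and MYH11 (-0.80) lowest. The brightest probe set of MYH11 was above the limit only on the si-GL2 array, at 69.0 against 32.7, and a probe set that passes so had to differ. Its other expressed probe set was at 48.2 against 47.7 (0.01), and the mean over its 7 probe sets was 0.05. Of 7 leukocyte genes 3 were expressed, CD3E (0.37), CD79A (0.07) and CSF1R (-0.27). The sum over all 7 was 328 against 296, with PTPRC, under the limit, at 39.5 against 22.5. Of 6 endothelial genes 3 were expressed, TIE1 (0.55), PECAM1 (0.20) and ROBO4 (-0.10), and the sum over all 6 was 424 against 401. TIE1 was above the limit only on the miR-99a array, at 72.9 against 44.6, so it too had to differ. Of 7 neuroendocrine genes 2 were expressed, ENO2 (0.20) and NCAM1 (-0.38), and the sum over all 7 was 338 against 328. None of these lists held a gene listed at 1 or less on both arrays. In RNA from whole cultures, fewer cells with a transcript and less of it per cell cannot be told apart.

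**Figure D4:**
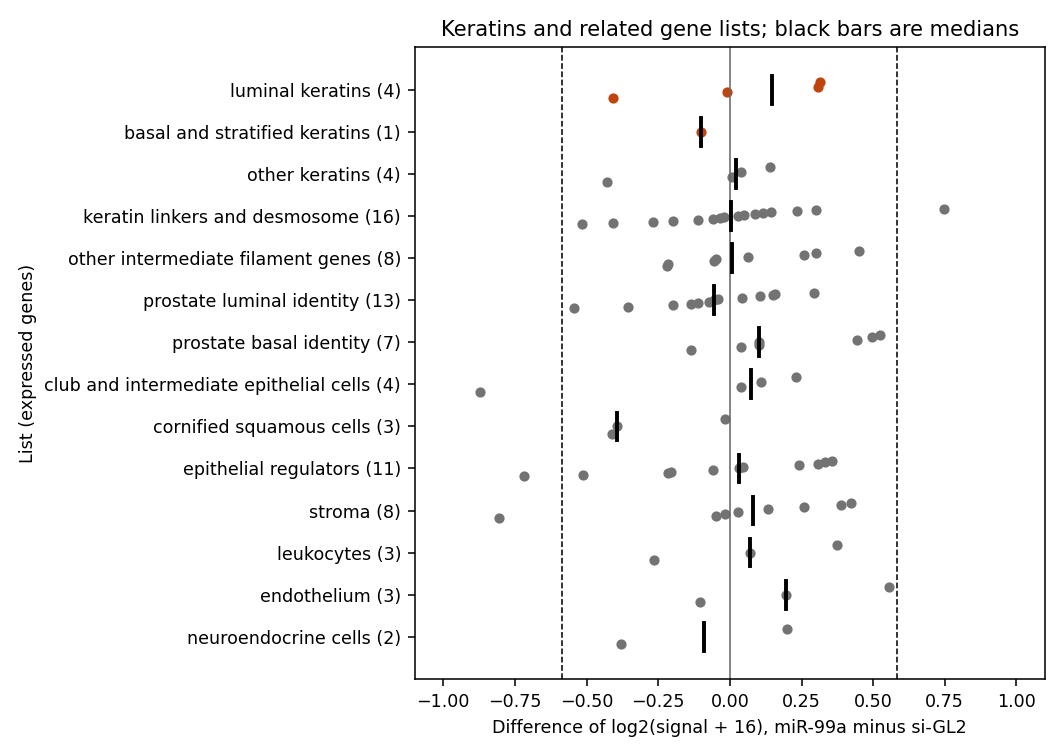
Difference of log2(signal + 16), miR-99a minus si-GL2 (x axis), of every expressed gene by its brightest probe set, for the luminal and basal or stratified keratins (red) and 12 related lists (grey), with the number of expressed genes in brackets, medians as black bars and 1.5-fold as dashed lines. No red point passes 1.5-fold, and the 4 genes that do are EPPK1 on the higher side and PSCA, GRHL1 and MYH11 on the lower side, the last by a probe set above the limit on the si-GL2 array only.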

How the data were processed

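Total RNA of 2 cultures was extracted with Trizol, biotin-labelled and hybridised to Affymetrix arrays, per the labels' protocols. The values the authors deposited are linear intensities, 1 for each probe set on each array. How probes were summarised and arrays scaled is not given in the sources used here; either step sets the size of the differences, above all of dim probe sets. The number of arrays limits the precision. Signals were used as deposited on the scale log2(signal + 16), because the array medians differed by 0.01, under the limit of 0.1 set for centring. By the platform annotation, 41091 probe sets had 1 gene name, 1801 several, 62 were Affymetrix controls and 11721 were unnamed; 41037 were matched by Entrez identifier to RefSeq (GRCh38.p14) and 0 symbols changed. A gene was represented by its brightest probe set. Past 1.5-fold is a rule of size, not a test. The members and lists were chosen with earlier results of these data known. Every member is named, and of the expressed genes of other lists the 2 highest, the 2 lowest and any past 1.5-fold. DSP, PLEC, VIM, probe sets under the limit and genes named as under the limit were added after their values were seen. The comparison with probe sets within 0.5 of a keratin's level was likewise added after the values were seen. Listed genes without a single-name probe set were not analysed here. Alternatives were pseudocounts of 1 and 64, centring, quantile normalization, no expression limit, only probe sets at or above the 75th percentile, no x or s probe sets, the mean over probe sets and a 2-fold rule. Python 3.11.15, numpy 2.4.6, pandas 2.3.3 and matplotlib 3.10.9 were used.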

Additional observations from a re-analysis of the deposited data

How the results depend on the processing

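The count of keratin genes past 1.5-fold was 0 under every alternative tried, and at 2-fold. That of keratin probe sets was 0 wherever it was taken, which leaves out the mean over probe sets. Since 0 of all 15 probe sets passed in the main setting, several alternatives could only give 0. These were the 2-fold rule, the 75th percentile, no x or s probe sets and the mean over probe sets. Removing the expression limit repeats that count over all 15. Centring shifts every difference by the same 0.01, too little to bring a keratin past 1.5-fold. The pseudocounts, centring and quantile normalization kept the expression limit, so dim probe sets such as that of KRT14 were not counted there. KRT8 lay between 0.30 and 0.34, KRT18 between 0.30 and 0.31 and KRT10 between -0.11 and -0.10 in every setting that gave them a value, while KRT19 ranged from -0.42 to -0.11 and KRT7 from -0.14 to 0.04. Without x and s probe sets KRT8, KRT18 and KRT10 had no value, the contrast of luminal with basal or stratified keratins could not be computed, and the median over expressed keratin probe sets was -0.21, from 2 probe sets. Of 80 expressed genes on the related lists, 4 were past 1.5-fold, where 4.11% of all expressed genes were. This count of 4 takes in MYH11, by a probe set above the limit on the si-GL2 array only. The count was 7 with a pseudocount of 1 (5.48% of all genes), 10 of 149 with no expression limit (6.58%), 2 of 43 above the 75th percentile (3.57%), 2 as means over probe sets (2.52%) and 0 at 2-fold (0.475%). Genes added with no expression limit were KRT40 (0.59), NEFH (0.60) and SPRR1B (0.73), and on the lower side KRT23 (-0.81), VWF (-0.75) and INSM1 (-0.66). The pseudocount and the limit act on dim genes. Medians of the basal identity, other filament, club, cornified, leukocyte, endothelial and neuroendocrine lists moved by at least 0.1 under 1 or more alternatives. No paired analysis was possible because each group holds 1 array, and no array could be left out. Dim signals limit what can be said of KRT5, KRT14, KRT15 and KRT80.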
